A study of Mus musculus with 8 samples.

Results

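The heat shock and DNAJ chaperone genes were taken as the genes whose symbol begins with Hspa, Hspb, Hspd, Hspe or Hsph and a digit, with Hsp90, or with Dnaja, Dnajb or Dnajc. Hspa5, Hsp90b1 and Dnajb9, which belong to the endoplasmic reticulum stress response, were not included. The rule gave 69 of the 23278 genes in the deposited tables: 13 of the Hsp70 and Hsp110 type, 2 of the Hsp90 type, 8 Hspb genes, 2 genes of the mitochondrial chaperonin, and 4 Dnaja, 12 Dnajb and 28 Dnajc genes. These types were assigned by symbol. The Hspb genes are small heat shock proteins except Hspb11, which is counted with them by symbol only. RNA-seq had been performed on tissue cut by laser from frozen sections of the lumbar cord (FVB/N mice, postnatal day 1), with 2 libraries in each of 4 groups. The groups were SMA motor neurons and WT motor neurons of the ventral horn, and SMA white matter and WT white matter. SMA mice carried the genotype SMN2+/+;SMNΔ7+/+;Smn-/-, a model of spinal muscular atrophy without mouse Smn and with human SMN2 and an SMN transgene that lacks exon 7, and the other mice were wild type (WT). Captures were cut from sections stained with hematoxylin, with no marker named for choosing the cells, and the series title describes the SMA mice as not yet symptomatic.

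Hsp70 proteins bind unfolded stretches of other proteins in a cycle driven by ATP. DNAJ proteins, also called Hsp40, deliver these clients and start ATP hydrolysis through their J domain, and Hsp110 proteins exchange the nucleotide and reset the cycle. Hsp90 finishes the folding of kinases and receptors, the mitochondrial chaperonin of Hspd1 and Hspe1 folds imported proteins, and small heat shock proteins hold unfolding proteins without ATP. Heat shock factor Hsf1 drives the inducible genes of the family when unfolded proteins accumulate, and motor neurons are known for a high threshold of this response. In people, variants of HSPB1, HSPB3, HSPB8 and DNAJB2 cause motor neuropathies.

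Values are RPKM, which scale reads by the length of the gene model and by depth, and differences are on the log2(RPKM + 1) scale, which understates changes of low genes. Library totals worked out from the RPKM steps were 77.5 to 102.8 M reads, and 11539 to 12796 genes reached 1 RPKM. The motor neuron captures held all 7 motor neuron markers at higher levels than the white matter captures in either genotype, and all 7 oligodendrocyte, 6 astrocyte and 7 microglia markers at lower levels. Smn1 was listed at 0 in all 4 SMA libraries, and was at 6.82 and 2.93 RPKM in WT motor neurons and at 5.30 and 14.3 RPKM in WT white matter. The second SMA motor neuron library stood apart, with fewer genes at 1 RPKM than any other and a larger share of the ribosomal RNA gene Rn45s (33.45% of the RPKM sum, against 19.4 to 29.5% in the other libraries). The labels name no animals, so p-values measure the spread between these libraries. In captures of many cells, fewer cells of a type and less RNA per cell cannot be told apart.

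Of the 69 genes, 60 reached 1 RPKM in at least 2 libraries and entered the test. The 9 that did not were Dnajb13, Dnajb7, Dnajb8, Dnajc22, Dnajc5b, Dnajc5g, Hspb2, Hspb7 and Hspb9. Their highest value was 2.76 RPKM, for Hspb2 in the first SMA white matter library, and Dnajb8 and Dnajc5g were listed at 0 in all 8 libraries. Over the 8 libraries, 34 genes averaged at least 10 RPKM, 20 averaged 1 to 10 RPKM and 15 averaged under 1 RPKM. Only Hsp90ab1 and Hspa8 averaged above 100 RPKM. Summed, the 69 genes made up 0.681 and 0.595% of the RPKM without Rn45s in SMA motor neurons, 0.677 and 0.682% in WT motor neurons, 0.501 and 0.511% in SMA white matter and 0.433 and 0.508% in WT white matter. The motor neuron libraries thus lay above the white matter libraries in either genotype.

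**Figure D1:**
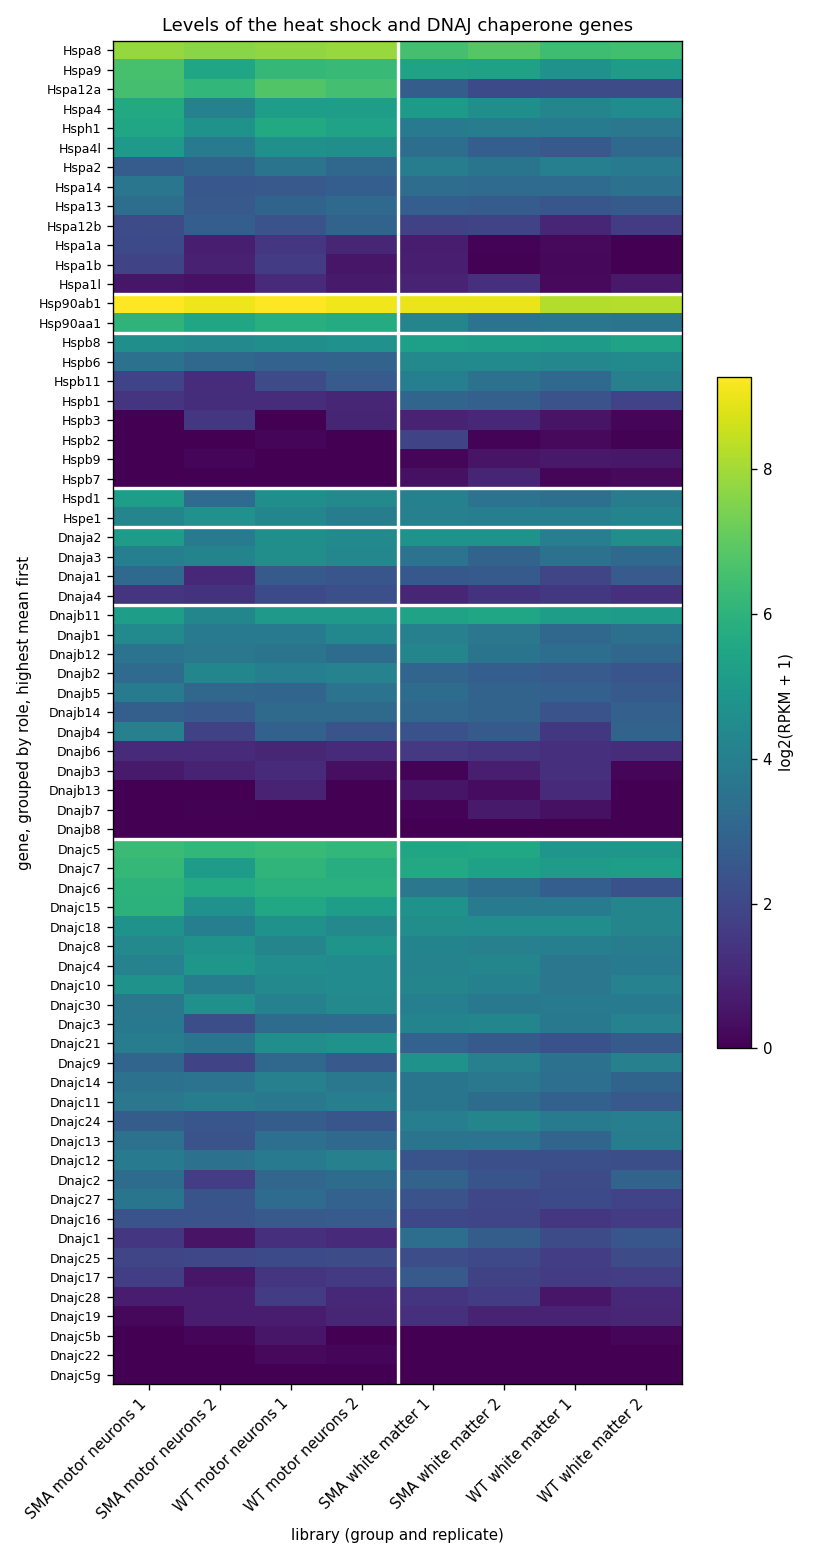
Levels of all 69 genes as log2(RPKM + 1), with libraries in columns, motor neurons left of white matter, and genes in rows by role. Hsp90ab1 and Hspa8 are the brightest rows, and Hspa12a, Dnajc6 and Hsp90aa1 are bright in the 4 motor neuron libraries and dark in the 4 white matter libraries.

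Hsp90ab1, the constitutive cytosolic Hsp90, was the most abundant of the genes. It was at 622 and 525 RPKM in SMA motor neurons, 609 and 547 in WT motor neurons, 513 and 511 in SMA white matter and 296 and 301 in WT white matter, which was 30.1 to 39.6% of the summed level of all 69 genes. Hspa8, the constitutive Hsc70 that also strips clathrin from vesicles, came second at 223 and 196 RPKM in SMA motor neurons, 211 and 230.1 in WT motor neurons, 92.6 and 113 in SMA white matter and 83.3 and 87.98 in WT white matter. The next 6 by mean level were Dnajc5, Hspa9, Dnajc7, Hspa12a, Dnajb11 and Hsp90aa1. Dnajc5 encodes the cysteine string protein of synaptic vesicles, and Hspa9 the Hsp70 of the mitochondrial matrix. Dnajc7 has tetratricopeptide repeats that bind Hsp70 and Hsp90, and Dnajb11 is a partner of the endoplasmic reticulum Hsp70. The mean over 8 libraries was 55.2 RPKM for Dnajc5, 53.0 RPKM for Hspa9, 47.5 RPKM for Dnajc7, 47.1 RPKM for Hspa12a, 33.4 RPKM for Dnajb11 and 33.1 RPKM for Hsp90aa1. Neighbours in this order differed by less than their spread over libraries.

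The strictly stress-inducible Hsp70 genes were at the other end. Hspa1a was at 3.20 and 0.738 RPKM in SMA motor neurons, 1.80 and 0.982 in WT motor neurons, 0.628 and 0.0626 in SMA white matter and 0.173 and 0 in WT white matter. Hspa1b was at 2.77 and 0.786 RPKM in SMA motor neurons, 2.11 and 0.473 in WT motor neurons, 0.699 and 0.0346 in SMA white matter and 0.147 and 0 in WT white matter, and in both genes the first library of each group was above the second. The first libraries also held Xist, transcribed from the inactive X of females, at 12.6 to 37.04 RPKM and the Y-linked Ddx3y at 0, and the second libraries held Xist at 0.0581 RPKM or less and Ddx3y at 0.628 to 6.37 RPKM. The part of sex in this pattern was not tested. These 2 genes are near-identical copies: 60.3% of the 50-base stretches of Hspa1a and 62.3% of those of Hspa1b occur in transcripts of other genes, so their reads could have been split or lost. The same holds for Hspa8 (73.2% of stretches), Hsp90aa1 (58.5%), Hspb1 (51.6%), Hspd1 (44.8%), Hspe1 (36.1%) and Dnajb6 (35.8%), and their levels are uncertain. The share was 4.5% for Hsp90ab1 and 0.0% for Hspa12a, Dnajc6, Dnajc5, Hsph1 and Hspb6.

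Promoter sequence was examined because heat shock factors bind alternating GAA and TTC units. RefSeq windows of build GRCm38.p6, from 250 bases before to 50 after the annotated start, were at hand for 55 of the 69 genes. An element of 3 such units in a row, alternating, starting with either unit and with any 2 bases (NN) between units, occurred in 4 of the 55 genes (7.27%), namely Dnajb6, Hspd1, Hspe1 and Hsph1, against 0.662% of 27025 genes. Both starts together cover both strands. An element of 2 units (GAA, NN, TTC or TTC, NN, GAA), which every three-unit match also contains, occurred in 16 of the 55 genes (29.1%), against 17% of all genes. The heat-inducible Dnajb1 had a window with neither element, and no window was at hand for Hsp90aa1, Hsp90ab1, Hspa8 and Hspa9. Below are 150 bases before to 30 after the start, with the matched letters in capitals. The genes shown were picked by hand among those with a match, so they do not represent their classes.
Hsph1, chr5:149636286-149636465, minus strand: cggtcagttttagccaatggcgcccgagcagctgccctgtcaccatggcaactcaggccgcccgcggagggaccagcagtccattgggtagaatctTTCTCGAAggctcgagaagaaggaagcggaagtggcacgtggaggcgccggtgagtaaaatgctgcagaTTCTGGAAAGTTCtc
Hspe1, chr1:55087998-55088177, plus strand: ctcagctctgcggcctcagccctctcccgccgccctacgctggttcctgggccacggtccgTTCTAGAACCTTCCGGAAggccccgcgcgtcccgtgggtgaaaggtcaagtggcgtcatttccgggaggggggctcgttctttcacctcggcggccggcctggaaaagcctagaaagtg
Hspb1, chr5:135887769-135887948, plus strand: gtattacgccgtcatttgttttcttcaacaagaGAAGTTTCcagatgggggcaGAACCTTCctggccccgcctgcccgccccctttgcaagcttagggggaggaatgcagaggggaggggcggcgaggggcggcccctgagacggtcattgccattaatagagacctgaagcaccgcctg
Hspb6, chr7:30553151-30553330, plus strand: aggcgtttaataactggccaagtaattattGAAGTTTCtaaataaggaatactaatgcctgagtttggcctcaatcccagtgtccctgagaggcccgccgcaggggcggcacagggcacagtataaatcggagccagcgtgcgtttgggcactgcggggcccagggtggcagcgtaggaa
Hspa1a, chr17:34972127-34972306, minus strand: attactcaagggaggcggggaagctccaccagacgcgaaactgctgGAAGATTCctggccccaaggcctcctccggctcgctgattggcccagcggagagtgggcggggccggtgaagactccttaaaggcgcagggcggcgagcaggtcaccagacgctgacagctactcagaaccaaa
Hspa1b, chr17:34959209-34959388, minus strand: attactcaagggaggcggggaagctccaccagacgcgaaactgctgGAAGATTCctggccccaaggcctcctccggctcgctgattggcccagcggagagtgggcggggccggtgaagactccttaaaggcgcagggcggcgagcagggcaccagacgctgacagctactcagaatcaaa
The windows of Hspe1 and of 1 of the 2 annotated starts of Hspd1, on opposite strands, overlap and share the printed match. The windows of Hspa1a and Hspa1b differ at 4 of 300 bases (98.7% identical). The three-unit match of Hsph1 lies after the annotated start, ending 27 bases from it, and only a two-unit match lies before the start. Among the 4 genes with a three-unit element, Hsph1 differed between the regions in the test below and Dnajb6, Hspd1 and Hspe1 did not pass it.

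The comparison of the 2 captures asked which chaperones distinguish the motor neuron captures from the surrounding white matter. All 6 spinal interneuron markers were also higher in the motor neuron captures without overlap in either genotype. Their sums were 53.6 to 100.4 RPKM there, against 3.41 to 11.5 RPKM in white matter. A gene higher in the motor neuron captures is therefore not shown to be particular to motor neurons. The white matter captures also held markers of meninges (sums of 52.7 to 185 RPKM), Schwann cells (25.4 to 112 RPKM) and red blood cells (301 to 1876 RPKM), so a gene higher there is not shown to be glial. In SMA mice, 9 of the 60 tested genes were higher in motor neurons than in white matter and 7 were lower (limma with Benjamini-Hochberg adjustment over 13948 genes, threshold 0.05). Of all genes tested, 13.6% were higher and 17.2% lower. In WT mice, 17 were higher and 3 lower, against 18.6% and 9.85% of all genes. All 9 genes higher in SMA were among the 17 of WT (100% of the SMA list and 52.9% of the WT list, beside 88.5% and 64.8% for the lists of all genes, and 15% of the 60 beside 12% of all genes). All 3 genes lower in WT were among the 7 of SMA (42.9% of the SMA list and 100% of the WT list, beside 49.4% and 86.2% for the lists of all genes, and 5% of the 60 beside 8.5% of all genes). The difference between genotypes in this region effect was tested directly and no gene of the 60 passed (smallest adjusted p = 0.883). By symbol, 4 of 13 Hsp70 and Hsp110 genes were higher in SMA motor neurons and 1 lower, and 1 of 2 Hsp90 genes was higher. Of the 5 tested Hspb genes, 3 were lower, Hspb11 among them, and 0 higher. In WT these counts were 6 higher and 0 lower for Hsp70 and Hsp110, 2 of 2 higher for Hsp90, and 2 of 5 lower and 0 higher for the Hspb genes. Of the 25 tested Dnajc genes, 4 were higher and 3 lower in SMA, and 7 higher and 1 lower in WT.

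**Figure D2:**
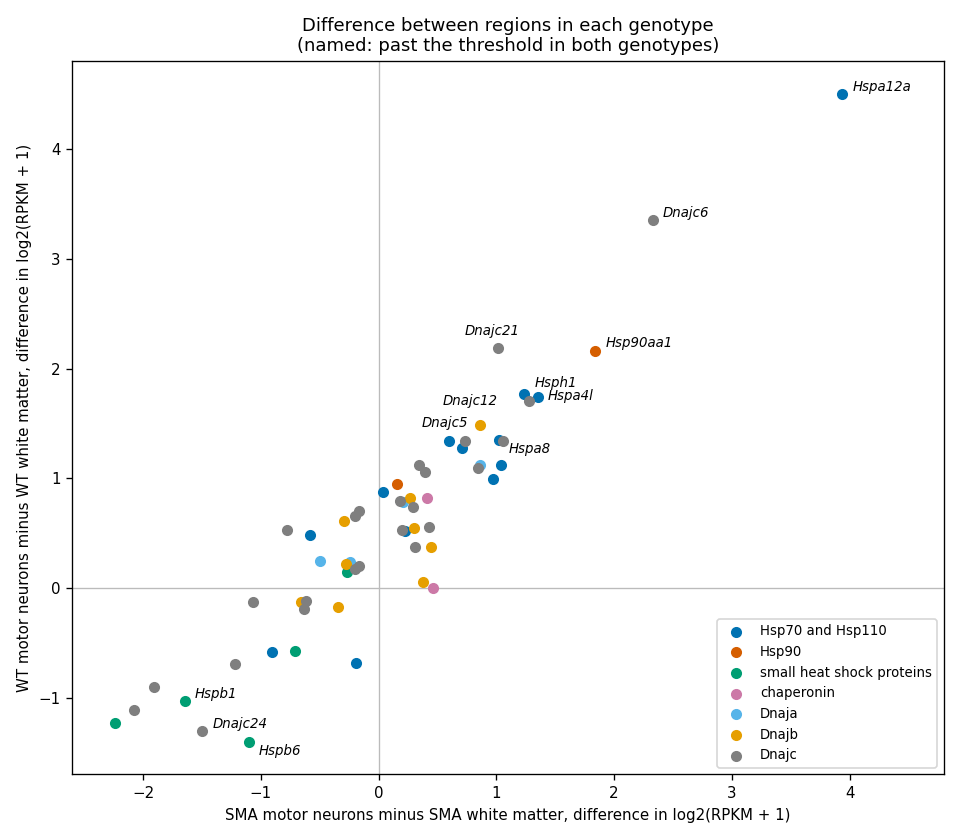
Difference between motor neurons and white matter in SMA mice (horizontal axis) and in WT mice (vertical axis) for the 60 tested genes, in log2(RPKM + 1), coloured by role. Hspa12a and Dnajc6 lie farthest up and right, with Hsp90aa1 next to the right and Dnajc21 next up. The small heat shock proteins Hspb1 and Hspb6 lie below 0 on both axes.

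Hspa12a, an atypical Hsp70 without the usual peptide-binding domain, separated the captures most. It was at 92.8 and 70.1 RPKM in SMA motor neurons against 5.69 and 3.23 in SMA white matter, and at 109 and 89.6 RPKM in WT motor neurons against 3.39 and 3.41 in WT white matter. The groups were far apart, with mean levels 18.2-fold higher in SMA motor neurons and 29.2-fold higher in WT motor neurons (log2 difference ± SE of 3.94 ± 0.31 in SMA, adjusted p = 6.22e-05, and 4.50 ± 0.31 in WT, adjusted p = 2.06e-05). Its paralog Hspa12b was at 3.35 and 5.88 RPKM in SMA motor neurons, 4.13 and 6.72 in WT motor neurons, 2.45 and 2.79 in SMA white matter and 1.02 and 2.04 in WT white matter. Its difference was 0.60 ± 0.40 in SMA (adjusted p = 0.278) and passed in WT (1.35 ± 0.40, adjusted p = 0.031).

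The other Hsp70 genes higher in motor neurons were Hspa8 and Hspa4l in both genotypes and Hspa9 in WT. Hspa8 was higher by 1.02 ± 0.21 in SMA (adjusted p = 0.00576) and by 1.35 ± 0.21 in WT (adjusted p = 0.00123), with all 4 motor neuron libraries above all 4 white matter libraries. Hspa4l, a nucleotide exchange factor of the Hsp110 type, was at 30.9 and 13.5 RPKM in SMA motor neurons, 24.3 and 23.1 in WT motor neurons, 9.27 and 5.91 in SMA white matter and 5.06 and 7.94 in WT white matter, and higher by 1.35 ± 0.41 in SMA (adjusted p = 0.033) and 1.75 ± 0.41 in WT (adjusted p = 0.0113). Hspa9 was at 94.97 and 43.8 RPKM in SMA motor neurons, 71.3 and 75.6 in WT motor neurons, 39.9 and 38.5 in SMA white matter and 25.7 and 34.1 in WT white matter. The difference was 0.71 ± 0.34 in SMA (adjusted p = 0.144), and in WT it passed (1.28 ± 0.34, adjusted p = 0.0204). Hspa2, an Hsp70 best known from testis, went the other way. It was at 5.56 and 6.99 RPKM in SMA motor neurons, 10.8 and 7.87 in WT motor neurons, 14.04 and 11.3 in SMA white matter and 15.04 and 13.6 in WT white matter, and was lower in motor neurons of SMA mice, with a difference of -0.91 ± 0.30 (adjusted p = 0.0459), while the difference in WT was -0.58 ± 0.30 (adjusted p = 0.181).

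Hsph1, the inducible Hsp110 whose three-unit element lies after the annotated start, was at 43.01 and 26.4 RPKM in SMA motor neurons, 49.2 and 40.02 in WT motor neurons, 13.7 and 13.7 in SMA white matter and 12.9 and 11.7 in WT white matter. Every motor neuron library was above every white matter library, with a difference of 1.24 ± 0.29 in SMA (adjusted p = 0.0121) and 1.77 ± 0.29 in WT (adjusted p = 0.00191). The inducible Hsp90aa1 was at 64.03 and 42.4 RPKM in SMA motor neurons, 55.7 and 51.5 in WT motor neurons, 17.8 and 10.7 in SMA white matter and 11.4 and 10.9 in WT white matter. It was higher in motor neurons by 1.84 ± 0.31 in SMA (adjusted p = 0.00248) and 2.17 ± 0.31 in WT (adjusted p = 0.000904). The ratio of Hsp90aa1 to Hsp90ab1 was 0.103 and 0.0808 in SMA motor neurons and 0.0914 and 0.0942 in WT motor neurons, against 0.0347 and 0.0209 in SMA white matter and 0.0385 and 0.0362 in WT white matter. The 2 paralogs therefore did not differ by the same factor between the captures. Hsp90ab1 did not pass in SMA (0.16 ± 0.18, adjusted p = 0.531) and passed in WT (0.95 ± 0.18, adjusted p = 0.00407).

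Among the DNAJ genes, Dnajc6 differed most in either genotype. Dnajc6, or auxilin, recruits Hsc70 to uncoat clathrin-coated vesicles in neurons. It was at 63.7 and 50.4 RPKM in SMA motor neurons, 58.7 and 58.5 in WT motor neurons, 11.8 and 9.24 in SMA white matter and 5.83 and 4.003 in WT white matter. The difference between captures was 2.33 ± 0.28 in SMA (adjusted p = 0.000478) and 3.35 ± 0.28 in WT (adjusted p = 5.51e-05). Dnajc5 was at 79.7 and 69.3 RPKM in SMA motor neurons, 76.5 and 70.7 in WT motor neurons, 42.7 and 45.8 in SMA white matter and 27.6 and 29.1 in WT white matter, with differences of 0.74 ± 0.22 in SMA (adjusted p = 0.0314) and 1.35 ± 0.22 in WT (adjusted p = 0.0018). Dnajc13, which acts at endosomes, was at 9.91 and 4.23 RPKM in SMA motor neurons, 9.36 and 8.06 in WT motor neurons, 10.8 and 10.7 in SMA white matter and 7.08 and 14.01 in WT white matter, and the WT difference was -0.18 ± 0.42 (adjusted p = 0.784).

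Dnajc21, a cofactor of cytoplasmic ribosome maturation, was at 14.3 and 11.2 RPKM in SMA motor neurons, 23.1 and 26.3 in WT motor neurons, 6.48 and 5.14 in SMA white matter and 4.09 and 5.22 in WT white matter. It was higher in motor neurons by 1.01 ± 0.30 in SMA (adjusted p = 0.0296) and by 2.19 ± 0.30 in WT (adjusted p = 0.000672). Dnajc12, which binds the aromatic amino acid hydroxylases, was at 12.9 and 9.95 RPKM in SMA motor neurons, 13.2 and 15.4 in WT motor neurons, 4.35 and 3.85 in SMA white matter and 3.76 and 3.64 in WT white matter and was higher by 1.28 ± 0.30 in SMA (adjusted p = 0.0115) and 1.70 ± 0.30 in WT (adjusted p = 0.00267). Dnajb2, which carries ubiquitin-interacting motifs and is rich in neurons, was at 8.60 and 18.3 RPKM in SMA motor neurons, 15.1 and 16.1 in WT motor neurons, 7.22 and 5.79 in SMA white matter and 5.32 and 4.57 in WT white matter. Its difference was 0.87 ± 0.37 in SMA (adjusted p = 0.1) and passed in WT (1.48 ± 0.37, adjusted p = 0.0143). The remaining genes higher in WT motor neurons were the mitochondrial Dnaja3, Dnajc11 and Dnajc15, with log2 differences of 1.12, 1.12 and 1.34, and Dnajc16 with 1.06 (adjusted p of 0.0188 to 0.0486).

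Some chaperone genes were higher in white matter, among them 3 of the 5 tested Hspb genes in SMA and 2 of 5 in WT. Hspb1 and Hspb6 were called in both genotypes, and the further one in SMA was Hspb11, which is no small heat shock protein. Hspb6, or Hsp20, was at 10.2 and 7.80 RPKM in SMA motor neurons, 6.66 and 6.85 in WT motor neurons, 19.7 and 21.02 in SMA white matter and 18.6 and 20.3 in WT white matter, and was lower in motor neurons, with differences of -1.10 ± 0.27 in SMA (adjusted p = 0.0147) and -1.40 ± 0.27 in WT (adjusted p = 0.0046). Hspb1, or Hsp25, was at 1.60 and 1.32 RPKM in SMA motor neurons, 1.29 and 1.0001 in WT motor neurons, 7.12 and 6.27 in SMA white matter and 4.22 and 2.66 in WT white matter, and its difference was -1.65 ± 0.34 in SMA (adjusted p = 0.00659) and -1.03 ± 0.34 in WT (adjusted p = 0.0491). The white matter libraries lay above the motor neuron libraries for both genes. Hspb8, which works with the cochaperone Bag3 in autophagy, was at 23.5 and 19.7 RPKM in SMA motor neurons, 23.6 and 25.2 in WT motor neurons, 36.5 and 35.3 in SMA white matter and 33.6 and 39.7 in WT white matter, again without overlap, but did not pass (-0.71 ± 0.24 in SMA, adjusted p = 0.0513, and -0.57 ± 0.24 in WT, adjusted p = 0.112). Hspb11, which despite its name is a subunit of intraflagellar transport, was at 2.61 and 1.26 RPKM in SMA motor neurons, 3.38 and 5.28 in WT motor neurons, 15.3 and 10.2 in SMA white matter and 8.01 and 15.6 in WT white matter and passed in SMA (-2.24 ± 0.42, adjusted p = 0.00416) and not in WT (-1.22 ± 0.42, adjusted p = 0.0564). Hspb3, of muscle and motor neuropathy, was low, at 0 and 1.74 RPKM in SMA motor neurons, 0 and 0.925 in WT motor neurons, 0.873 and 1.12 in SMA white matter and 0.413 and 0.106 in WT white matter.

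Dnajc24, a factor of diphthamide synthesis on elongation factor 2, was the other gene lower in motor neurons of both genotypes. It was at 5.61 and 4.57 RPKM in SMA motor neurons, 5.74 and 4.57 in WT motor neurons, 14.5 and 17.9 in SMA white matter and 13.5 and 14.7 in WT white matter, with differences of -1.50 ± 0.30 in SMA (adjusted p = 0.00519) and -1.30 ± 0.30 in WT (adjusted p = 0.0095). In SMA mice Dnajc9, a histone cochaperone, and Dnajc1, a membrane protein of the endoplasmic reticulum, were lower too. Dnajc9 was at 7.12 and 2.77 RPKM in SMA motor neurons, 7.70 and 5.01 in WT motor neurons, 25.3 and 15.3 in SMA white matter and 10.004 and 15.5 in WT white matter, with a difference of -1.90 ± 0.44 in SMA (adjusted p = 0.011) and -0.90 ± 0.44 in WT (adjusted p = 0.161). Dnajc1 was at 1.74 and 0.409 RPKM in SMA motor neurons, 1.42 and 1.23 in WT motor neurons, 9.20 and 5.74 in SMA white matter and 3.45 and 4.64 in WT white matter, with -2.08 ± 0.42 in SMA (adjusted p = 0.00546) and -1.11 ± 0.42 in WT (adjusted p = 0.0745). The summed level of 3 markers of dividing cells was lower in motor neurons too (6.19 and 1.01 RPKM in SMA motor neurons, 5.49 and 3.62 in WT motor neurons, 47.7 and 19.8 in SMA white matter, 21.3 and 28.2 in WT white matter), and its part in the Dnajc9 result was not tested.

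**Figure D3:**
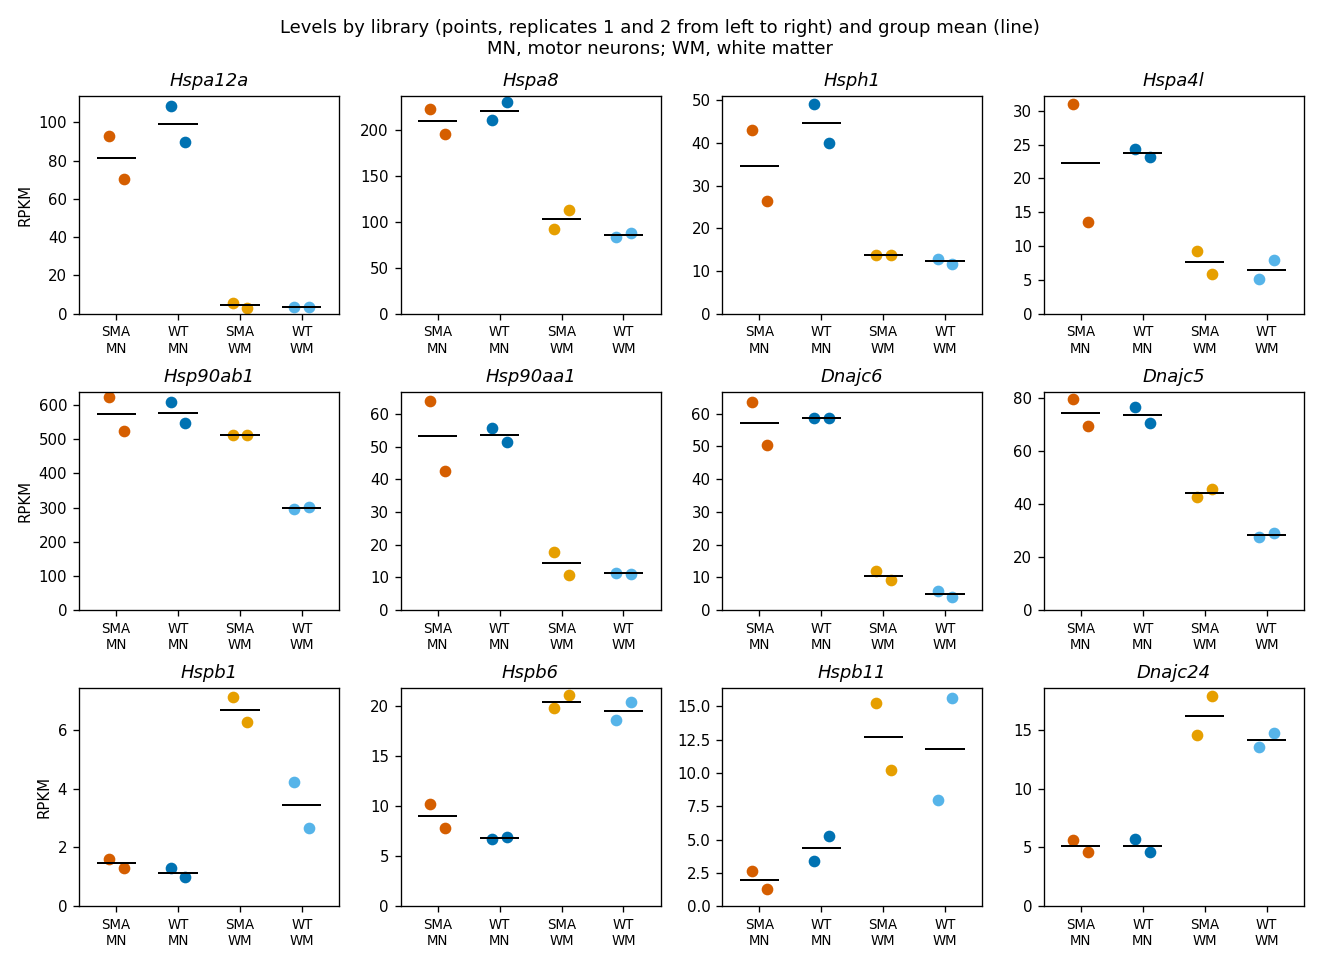
Levels in RPKM of 12 genes in each library, with points for replicates 1 and 2 and a line for the mean of the group, SMA left of WT and motor neurons left of white matter. The first 8 genes lie higher in motor neurons and the last 4 higher in white matter. Hsp90ab1, at 513 and 511 RPKM in SMA white matter, did not pass the test in SMA, and Hspb11 did not pass in WT.

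These region counts depended on scaling and on single libraries. Shares of all genes were given for the main fit only, so these counts do not show whether the members moved apart from all genes. In SMA, the split of 9 higher and 7 lower became 12 and 6 (median of ratios), 11 and 8 (quantile) or 9 and 9 (rescaled without Rn45s), and in WT that of 17 and 3 became 16 and 6, 13 and 7, or 11 and 9. The median difference of all genes moved under these 3 scalings as well, from -0.24 to -0.07, -0.07 and -0.27 in SMA. In WT it moved from 0.08 to -0.05, -0.08 and -0.24. In either genotype under these 3 scalings, the Hsp90 genes had 0 lower calls. The Hspb genes, counted with Hspb11, had 0 higher and 3 to 4 lower calls. The Hsp70 and Hsp110 genes had 4 to 6 higher and 0 to 2 lower calls. Without the first or the second SMA motor neuron library the SMA counts were 7 and 12 or 14 and 7. Without the first or the second SMA white matter library they were 4 and 3 or 4 and 5. In WT the counts were 8 and 2 or 9 and 1 without the first or the second motor neuron library, and 9 and 2 or 10 and 1 without the first or the second white matter library. The WT counts were 24 and 5 or 24 and 6 without the first or the second SMA motor neuron library, which enter through the shared estimate of the spread. Hspa12a, Dnajc6, Hsp90aa1 and Hspa8 passed in each of the 19 alternatives in both genotypes. Dnajc24, Hspb1 and Hspb11 did so in SMA, and Dnajc12, Dnajc21, Dnajc5, Hsph1 and Hspb6 in WT. The other called genes did not pass in every alternative, among them Hspa2 in SMA and Hspb1, Hspa12b and Dnajc15 in WT. All 16 genes called in SMA and all 20 in WT differed the same way within replicate 1 and within replicate 2. The groups did not overlap for any of them, so every pairing of libraries gives the same sign, and this adds no support.

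The remaining genes with known disease roles lay at similar levels in both captures or did not pass. Dnajb6, whose human gene is mutated in a limb-girdle muscular dystrophy, was at 1.22 and 1.18 RPKM in SMA motor neurons, 1.02 and 1.17 in WT motor neurons, 1.89 and 1.71 in SMA white matter and 1.42 and 1.29 in WT white matter. Dnajc3, an inhibitor of the kinase PERK in the endoplasmic reticulum, was at 12.6 and 3.67 RPKM in SMA motor neurons, 8.64 and 8.48 in WT motor neurons, 17.2 and 17.99 in SMA white matter and 12.6 and 16.5 in WT white matter, with a difference of -1.22 ± 0.45 in SMA (adjusted p = 0.0657). Hspd1 and Hspe1, which together form the mitochondrial chaperonin, differed in pattern. Hspd1 was at 36.2 and 8.48 RPKM in SMA motor neurons, 23.5 and 19.6 in WT motor neurons, 16.1 and 10.7 in SMA white matter and 9.45 and 14.3 in WT white matter, and Hspe1 at 17.9 and 25.1 RPKM in SMA motor neurons, 18.1 and 14.3 in WT motor neurons, 15.6 and 14.8 in SMA white matter and 14.8 and 17.4 in WT white matter. The second SMA motor neuron library held the lowest value of Hspd1 and the highest of Hspe1.

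SMA was then compared with WT, the main question of the series. In motor neurons, 0 of the 60 genes passed limma with adjustment over 13948 genes, as did 0% of all genes (smallest adjusted p of a member 0.894). In white matter, over both regions and for the difference between regions the count was also 0 of 60, with 0% of all genes (smallest adjusted p 0.727, 0.761 and 0.883). The voom method on reads worked out from the RPKM steps called 0 of the 60 in each of the 4 comparisons, and 1 gene of all in white matter and 1 over both regions. At an unadjusted p under 0.05, 2 of 60 differed in motor neurons (4.37% of all genes), 5 in white matter (6.31%), 4 in the difference between regions (4.97%) and 2 over both regions (5.99%).

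None of the classical heat-inducible genes passed between the genotypes. In motor neurons, Hspa1a differed by 0.20 ± 0.47 (SMA minus WT, 95% interval -0.85 to 1.25), Hspa1b by 0.28 ± 0.50 (-0.84 to 1.39) and Dnajb1 by 0.03 ± 0.32 (-0.70 to 0.75). Dnajb1, the cytosolic Hsp40, was at 20.4 and 13.4 RPKM in SMA motor neurons, 13.7 and 19.1 in WT motor neurons, 15.5 and 11.8 in SMA white matter and 7.83 and 9.70 in WT white matter. Hsph1 differed by -0.39 ± 0.29 (-1.05 to 0.27), Hspb1 by 0.20 ± 0.34 (-0.57 to 0.97) and Hsp90aa1 by -0.04 ± 0.31 (-0.74 to 0.66). Dnaja1, another cytosolic Hsp40, had the widest interval of these genes, -0.44 ± 0.60 (-1.78 to 0.90). Its levels were 8.08 and 1.06 RPKM in SMA motor neurons, 5.12 and 4.62 in WT motor neurons, 4.92 and 5.26 in SMA white matter and 2.88 and 5.31 in WT white matter, so the 2 SMA motor neuron libraries lay on either side of both WT ones. The constitutive Hspa8 (-0.08 ± 0.21, -0.54 to 0.39) and Hsp90ab1 (-0.01 ± 0.18, -0.42 to 0.39) had the narrowest intervals among the 9. On the log2(RPKM + 1) scale, their intervals exclude a difference of 1 in either direction, as do those of Hsp90aa1, Dnajb1 and Hspb1. Hspb1 was at 1.00 to 1.60 RPKM in motor neurons, so for it a difference of 1 on this scale is more than 1 log2 unit of RPKM. The intervals use a spread shared by all groups. The median absolute difference between replicates was 0.67 in SMA motor neurons and 0.20 in WT motor neurons.

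**Figure D4:**
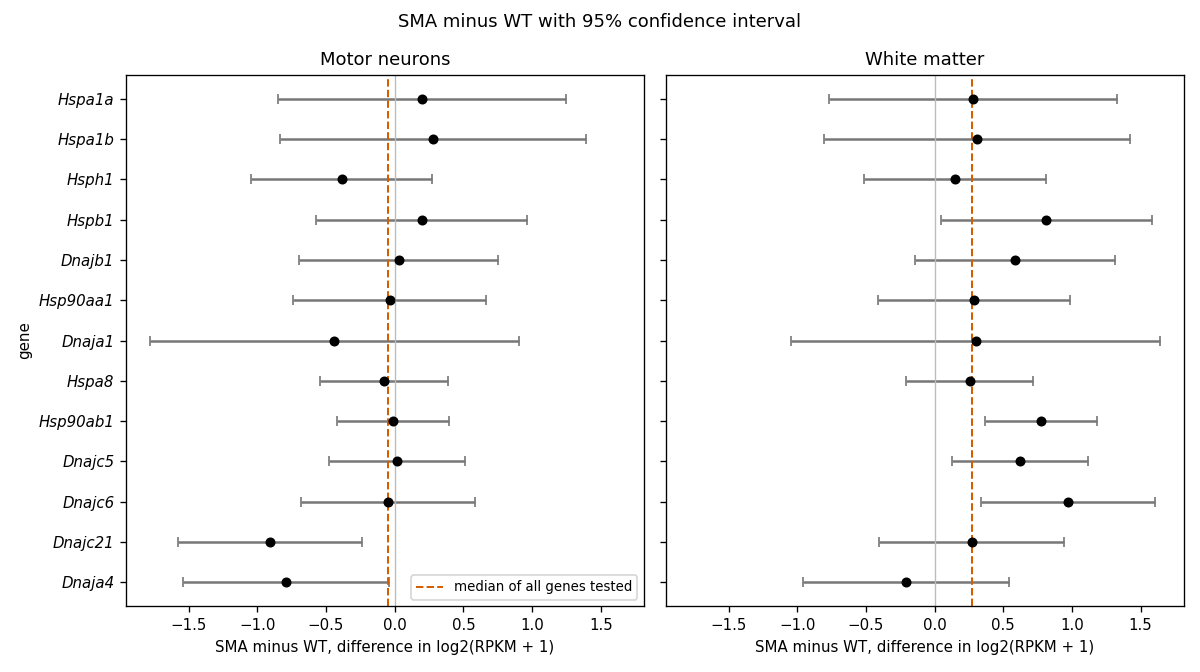
SMA minus WT difference in log2(RPKM + 1) with 95% confidence interval for 13 genes, in motor neurons (left) and white matter (right), with the median of all 13948 tested genes as a dashed line. In white matter the intervals of Hsp90ab1, Dnajc6, Dnajc5 and Hspb1 lie above 0, and none of the 13 passed the adjusted threshold in either region.

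Of the genes that differed most in motor neurons, Dnajc21 was lower in SMA (14.3 and 11.2 RPKM in SMA motor neurons, against 23.1 and 26.3 in WT motor neurons) without overlap, with a difference of -0.91 ± 0.30 (unadjusted p = 0.0133, adjusted p = 0.894). It was in the same direction in each of the 19 alternatives, between -1.07 and -0.74. Dnaja4, a cytosolic Hsp40 of Hsp70, was at 1.65 and 1.57 RPKM in SMA motor neurons, 3.21 and 3.83 in WT motor neurons, 1.001 and 1.56 in SMA white matter and 1.82 and 1.41 in WT white matter, with -0.79 ± 0.33 in motor neurons (unadjusted p = 0.0408, adjusted p = 1). Hspb11 had -0.88 ± 0.42 and Dnajc28 -0.61 ± 0.36 in motor neurons (unadjusted p = 0.066 and 0.126). On the higher side the 4 genes with the smallest p were Hspe1 (0.37), Hspb6 (0.36), Hspa14, an Hsp70 of the ribosome-associated complex (0.40), and Hspb1 (0.20), with unadjusted p of 0.219 or more. Without overlap between the groups, 3 genes were higher and 13 lower in SMA motor neurons, against 12.7% and 15.5% of all genes tested. By sign, 45 of the 60 differences were below 0 and 15 above (44.2% of all genes were above), and the members' median was -0.18 beside -0.05 for all genes. Of the 25 tested Dnajc genes 23 were below 0, among them none that passed. These sign counts rested on the second SMA motor neuron library. Without it 24 of the 60 and 11 of the 25 Dnajc genes were below 0 (40.4% of all genes), and the members' median was 0.11. Within replicate number 1 the counts were 27 of 60 and 13 of 25, and within number 2 they were 48 of 60 and 22 of 25. Of the 60 genes, 20 were lower in SMA within both numbers, 4 were higher within both and 36 were neither. These 36 changed sign, except Hspb3, which had a difference of 0 within number 1 and 0.51 within number 2. Markers of cell types differed between these groups too. The motor neuron markers summed to 535 and 541 RPKM in SMA motor neurons against 619 and 637 RPKM in WT motor neurons (3 of 7 lower and 0 higher without overlap). The microglia markers had sums of 88.3 and 76.4 RPKM in SMA motor neurons against 25.9 and 30.5 RPKM in WT motor neurons (6 of 7 higher without overlap). The oligodendrocyte markers had 113 and 78.8 RPKM in SMA motor neurons against 63.3 and 40.3 RPKM in WT motor neurons (5 of 7 higher without overlap), and 3 of 6 astrocyte and 3 of 6 interneuron markers were higher without overlap. Their part in the differences was not tested.

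In white matter, Hsp90ab1 had the smallest p of the 60. It was at 513 and 511 RPKM in SMA white matter against 296 and 301 in WT white matter, a 1.71-fold higher mean, with replicates within a few percent of each other. The difference was 0.78 ± 0.18 (95% interval 0.37 to 1.18, unadjusted p = 0.00183, adjusted p = 0.727). In motor neurons the difference was -0.01 ± 0.18, and the difference of both was -0.79 ± 0.26 (unadjusted p = 0.0125, adjusted p = 0.883). Dnajc6 followed with 11.8 and 9.24 RPKM in SMA white matter against 5.83 and 4.003 in WT white matter (0.97 ± 0.28, unadjusted p = 0.00681). Dnajc5 was at 42.7 and 45.8 RPKM in SMA white matter against 27.6 and 29.1 in WT white matter (0.62 ± 0.22, unadjusted p = 0.0187). Dnajc11, a protein of the mitochondrial contact sites, was at 11.8 and 13.99 RPKM in SMA motor neurons, 12.5 and 14.5 in WT motor neurons, 11.2 and 8.81 in SMA white matter and 6.35 and 5.04 in WT white matter, and differed by 0.71 ± 0.29 in white matter (unadjusted p = 0.0368). Hspb1 was at 7.12 and 6.27 RPKM in SMA white matter against 4.22 and 2.66 in WT white matter (0.81 ± 0.34, unadjusted p = 0.0399). The lower side held Dnaja4 (-0.21), Dnajb3, a testis Hsp40 (-0.27), Hspa2 (-0.17) and Hspe1 (-0.08), with unadjusted p of 0.552 or more.

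These white matter values stand beside a shift of all genes. The median of the 13948 tested genes was 0.27 higher in SMA white matter, and the members' median was also 0.27. With 32 of 60 genes higher and 0 lower without overlap, the members stand beside 39.7% and 4.17% of all genes. Under the median of ratios, quantile and Rn45s scalings the median of all genes was 0.0015, -0.006 and -0.02, and that of the members -0.02, -0.03 and -0.04, with 27 to 28 of 60 genes above 0 in place of 53 (80% of all genes were above 0 before scaling). Relative to the median of all genes, Hsp90ab1 was higher by 0.50, Dnajc6 by 0.70 and Dnajc5 by 0.35. The Hsp90ab1 difference was 0.44, 0.26 and 0.41 under the 3 scalings, Dnajc6 0.68, 0.72 and 0.66, and Dnajc5 0.30, 0.29 and 0.27. The 7 motor neuron markers summed to 19.1 and 8.81 RPKM in SMA white matter against 9.40 and 6.90 RPKM in WT white matter. Without overlap, 2 of 7 of them and 1 of 6 spinal interneuron markers were higher in SMA white matter, against 39.7% of all genes. Snap25, a synaptic SNARE gene, was at 48.8 and 33.7 RPKM in SMA white matter against 26.8 and 27.9 RPKM in WT white matter. Mnx1 was at 0.0142 RPKM and 0 in SMA white matter. Dnajc6 and Dnajc5 were higher in motor neurons than in white matter as well, and the part of neuronal RNA in their values was not tested. Of other cell types, 6 of 7 microglia, 4 of 4 meninges and 4 of 4 pericyte markers were higher in SMA white matter without overlap. Of the oligodendrocyte markers 1 of 7 was. The part of these cell types was not tested either.

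Across both regions, Hsp90ab1 (0.38 ± 0.13, unadjusted p = 0.0149), Dnajc6 (0.46 ± 0.20), Hspb1 (0.51 ± 0.24) and Dnajc5 (0.32 ± 0.16) had the smallest p on the higher side, and Dnaja4 (-0.50 ± 0.24), Hspa2 (-0.34 ± 0.21), Dnajc21 (-0.32 ± 0.21) and Hspb11 (-0.37 ± 0.30) on the lower side. For the SMA effect in motor neurons minus that in white matter, the smallest p after Hsp90ab1 were those of Dnajc21 (-1.18 ± 0.42, unadjusted p = 0.0202), Dnajc6 (-1.02 ± 0.40, 0.0298) and Dnajc28 (-1.31 ± 0.51, 0.0305). On the higher side they were Hspe1 (0.45), Hspa14 (0.49), Hspb6 (0.30) and Dnajb3 (0.32). The median of all genes in this difference was -0.33. Dnajb14, Dnajc12, Dnajc14, Dnajc16, Dnajc28 and Hspa1l were lower in SMA motor neurons and higher in SMA white matter without overlap (6 of 60, 10%, against 5.68% of all genes), and 0 did the opposite (0.516% of all genes). Dnajb6 and Hspb1 were higher in SMA in both regions without overlap (3.33%, against 5.91%), and 0 were lower in both (0.939%).

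Genes that work with the chaperones but are not of the family were followed through lists of partners, of which 49 of 51 genes were tested. In SMA, 8 of the 49 were higher in motor neurons and 3 lower, and in WT 12 were higher and 2 lower, beside 13.6% and 17.2% of all genes in SMA and 18.6% and 9.85% in WT. Of the Hsp90 cochaperones, 3 of 14 were higher in SMA motor neurons and 1 lower (Cdc37l1), and 5 of 14 were higher in WT, led by Unc45a, a myosin and Hsp90 partner (17.4 and 15.2 RPKM in SMA motor neurons, 17.3 and 17.3 in WT motor neurons, 4.43 and 6.26 in SMA white matter, 3.31 and 3.59 in WT white matter). Among the others called in WT were Stip1, which links Hsp70 to Hsp90, Cdc37, the kinase adaptor, and Fkbp4, an immunophilin. Of the Hsp70 cochaperones, 3 of 12 were higher and 1 lower in WT, with Hspbp1, a nucleotide exchange factor, higher by 2.02 ± 0.29 (adjusted p = 0.000831). The lower one was Bag3, the partner of Hspb8, at 3.53 and 6.16 RPKM in SMA motor neurons, 4.05 and 1.78 in WT motor neurons, 18.1 and 11.1 in SMA white matter and 9.16 and 8.96 in WT white matter (-1.42 ± 0.41 in WT, adjusted p = 0.0277). Cryab, the alpha-crystallin relative of the small heat shock proteins, was lower in motor neurons with them (-2.02 ± 0.37 in SMA, adjusted p = 0.00344, and -2.28 ± 0.37 in WT, adjusted p = 0.00161). In the cytosolic chaperonin TRiC and its partner prefoldin, Cct7, Pfdn2 and Pfdn4 were higher (3 of 13 in either genotype).

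A set of 15 heat-responsive genes also held Hspa8, which is mainly constitutive, beside Hspa1a, Hspa1b, Hsph1, Hspb1, Dnajb1, Hsp90aa1, Dnaja1, Hspd1, Hspe1, Bag3, Chordc1, Stip1, Ahsa1 and Cryab. Within it, the SMA captures differed in 3 genes higher in motor neurons and 3 lower, and the WT captures in 4 higher and 3 lower (beside 13.6% and 17.2% of all genes in SMA, and 18.6% and 9.85% in WT). Hsp90aa1, Hsph1 and Hspa8 were higher in both genotypes and Stip1 in WT, and Hspb1, Bag3 and Cryab were lower in both. Between SMA and WT, 0 of the 49 partner genes and 0 of the 15 genes of this set passed in any comparison. Hsf1, the main heat shock factor, was at 22.4 and 18.9 RPKM in SMA motor neurons, 14.2 and 11.3 in WT motor neurons, 11.7 and 18.3 in SMA white matter and 20.3 and 11.6 in WT white matter. The SMA motor neuron libraries were above the WT ones, with a difference of 0.66 ± 0.35 (unadjusted p = 0.0885, adjusted p = 1). Hsf2 differed by 0.03 ± 0.48 in motor neurons and 0.13 ± 0.48 in white matter. Hsf4 was at 0.157 and 0.379 RPKM in SMA motor neurons against 0.0253 and 0.0773 RPKM in SMA white matter. It was higher in the motor neuron captures of WT mice (1.37 ± 0.34, adjusted p = 0.0146) at levels of 2.39 and 1.80 RPKM in WT motor neurons against 0.415 RPKM and 0 in WT white matter. SMA motor neurons were thus below WT motor neurons without overlap, with a difference of -1.29 ± 0.34 that did not pass (unadjusted p = 0.00396, adjusted p = 0.691).

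The spread between replicates of the chaperone genes was largest in SMA motor neurons. The median absolute difference between replicates over the 60 genes was 0.67 in SMA motor neurons, against 0.20 in WT motor neurons, 0.27 in SMA white matter and 0.27 in WT white matter. In SMA motor neurons 18 of 60 genes (30%) were more than 1 log2 unit lower in replicate 2 than in replicate 1, beside 19% of all genes, and 2 were more than 1 higher. Among the large differences was Dnaja1, at 8.08 RPKM in replicate 1 and 1.06 RPKM in replicate 2. Without the second library, the 60 genes still gave 0 calls between SMA and WT motor neurons, as they did without any other library.

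**Figure D5:**
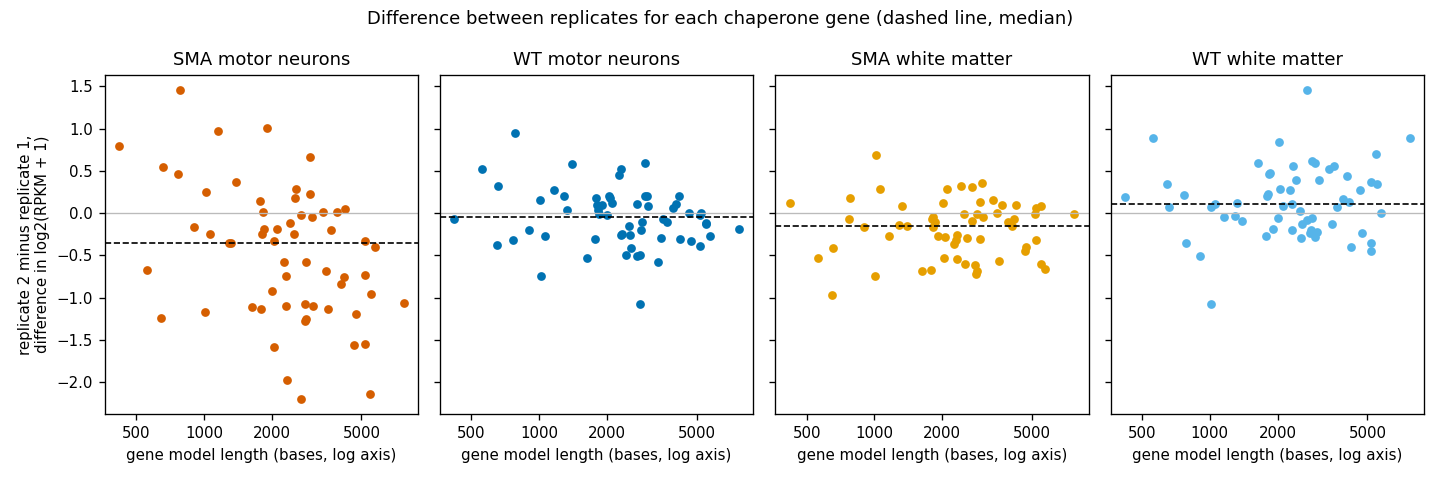
Difference between replicate 2 and replicate 1 in log2(RPKM + 1) for each of the 60 tested genes, plotted against the length of the gene model on a log axis, with 1 panel per group and a dashed line at the median. The SMA motor neuron panel spreads widest, with a median of -0.35, and the other medians lie between -0.15 and 0.11.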

How the data were processed

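The deposited values are RPKM per gene for 8 libraries, and the submitters' processing notes name TopHat, bedtools, DESeq and mouse build mm9, without versions. Per the labels' protocols, RNA of laser captures was amplified with the NuGEN Ovation RNA-seq System V2. How the authors treated reads matching several genes or strands is not given in the sources used here. The RPKM steps gave whole reads for 99.99% of 17431 genes (tolerance 0.02 reads). Values were tested as log2(RPKM + 1) with limma 3.58.1 in R 4.3.3 (4 group means, moderated with trend, two-sided), over 13948 genes with at least 1 RPKM in at least 2 libraries, with Benjamini-Hochberg adjustment and a threshold of 0.05. The script was run on simulated data in which all groups shared the same spread for a gene. The larger spread of SMA motor neurons was not simulated. Tables, promoter searches and figures used Python 3.11.15, pandas 2.3.3 and matplotlib 3.10.9. Shared stretches of 50 bases were counted in the GENCODE M21 transcripts.

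Genes were named by rule: up to 10 called genes per direction in each region comparison, the 4 smallest p per direction in each SMA comparison, 9 heat-inducible or constitutive genes, the 8 highest levels, genes with disease or neuronal roles, and up to 3 partner genes per list, with other called genes named without further choice. Not every partner gene is reported here by name. The members and lists were chosen with earlier results of these data known. Alternatives were other pseudocounts, filters, scalings and fits, a replicate block, voom on recovered reads and leaving out each library.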

Additional observations from a re-analysis of the deposited data

How the results depend on the processing

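The counts of chaperone genes called between SMA and WT were 0 under every alternative run, and the smallest adjusted p of any of the 60 genes was 0.099 in motor neurons, 0.351 in white matter, 0.0975 for the difference between regions and 0.274 over both regions. Between captures in SMA, 9 higher became 4 with only the compared libraries. In WT, 17 higher became 11 after rescaling without Rn45s, and 3 lower became 6 (median of ratios), 7 (quantile), 9 (rescaled without Rn45s) and 5 (only the compared libraries). Leaving out 1 library gave 4 to 14 higher and 3 to 12 lower in SMA, and 8 to 24 higher and 1 to 6 lower in WT. Shares of all genes under these alternatives are not set beside these counts, and the causes were not tested.

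Signs near 0 turned. In SMA minus WT motor neurons, the median of ratios gave Hsp90aa1 0.0033 and Hsp90ab1 0.0282. In white matter, Hsph1 was -0.1612, -0.1787 and -0.1886, Hsp90aa1 -0.0227, -0.03 and -0.0497, and Hspa8 -0.0766, -0.1355 and -0.1047 under the median of ratios, quantile and Rn45s scalings. Dnaja1 between WT captures was -0.094 without Rn45s. Leaving out 1 library gave, in SMA minus WT motor neurons, Hspa14 -0.17 to 0.97, Hspa1a -0.44 to 0.84, Hspa1b -0.26 to 0.82, Dnajb1 -0.26 to 0.31, Hsp90aa1 -0.33 to 0.25, Dnaja1 -1.51 to 0.63, Hspa8 -0.17 to 0.0175 and Hsp90ab1 -0.14 to 0.11. In white matter it gave Dnajb3 -0.81 to 0.26, Hspe1 -0.19 to 0.0296, Hspa1a -0.0274 to 0.59, Hspa1b -0.0501 to 0.67, Hsp90aa1 -0.056 to 0.63 and Dnaja1 -0.0515 to 0.65. For the difference between regions it gave Hspa14 -0.084 to 1.06 and Dnajb3 -0.21 to 0.86. Between captures it gave Dnajb1 -0.0176 to 0.56 and Dnaja1 -1.56 to 0.58 in SMA, and Dnaja1 -0.11 to 0.59 in WT.

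No label ties libraries of the same replicate number, and their deviations correlated at -0.343 to 0.0805, so the main values use no pairing, although the number went with Xist and Ddx3y in all 4 groups. With the replicate number as a block, 9 were higher and 6 lower in SMA, 17 higher and 2 lower in WT, and 0 called between SMA and WT. A fit of only the compared libraries was not run for the difference between regions and over both regions, which use all 8. With 2 libraries a group, and 1 left after a removal, the lone library is assumed to vary like the other groups.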

Other observations

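In SMA motor neurons the difference between replicate 2 and replicate 1 varied with the length of the gene model. The median was 0.04 for the 14 tested chaperone genes under 1500 bases, -0.33 for the 27 from 1500 to under 3000 bases and -0.75 for the 19 of 3000 bases or more. Spearman's rho between length and this difference was -0.345 over the 60 genes and -0.181 over 13587 genes with a length, across genes that share both libraries and are not independent replicates. In WT motor neurons rho was -0.207 over the 60 genes, in SMA white matter 0.043 and in WT white matter 0.05. The second SMA motor neuron library held the lowest of the 8 values for 16 of the 60 genes (27.9% of all genes), the first WT white matter library for 17 (11% of all genes) and the second WT white matter library for 12 (22.1% of all genes), and the first SMA motor neuron library the highest for 22 (21.1% of all genes).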
